A study of Mus musculus with 6 samples.

Results

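Glucocorticoids are steroid hormones of the adrenal gland that enter cells and bind the glucocorticoid receptor, which is held by chaperones until hormone binds and then acts on genes in the nucleus. The enzyme 11β-hydroxysteroid dehydrogenase type 1 remakes active hormone from its inert form inside cells, and a well-known group of genes is induced by the receptor in astrocytes and many other cell types. Some of these induced genes, Fkbp5 among them, in turn dampen receptor signalling. The 10 genes described here are the receptor gene Nr3c1, the related mineralocorticoid receptor gene Nr3c2, the enzyme gene Hsd11b1 and 7 induced genes (Fkbp5, Tsc22d3, Sgk1, Zbtb16, Klf9, Errfi1 and Cebpd). They were taken by gene symbol from a table of 45777 genes.

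RNA sequencing was performed on astrocytes sorted from the brains of male Aldh1l1-cre/ERT2;Rosa26-tdTomato fl/fl mice on a C57BL/6 background, in which tamoxifen (75 mg/kg for 5 days) turns on the red protein tdTomato in cells that use the Aldh1l1 promoter. At the age of 8 weeks they were injected once with citrate buffer, either alone (vehicle) or with STZ at 150 mg/kg. STZ, streptozotocin, destroys the insulin-producing beta cells of the pancreas, and the STZ mice kept for the study were those whose blood glucose had risen past a set level. The mice of both groups thus carried the same transgenes and received tamoxifen, and the labels give the genotype of every sample as WT. Each sample was a pool from the brains of 3 mice, and there were 3 samples in each group. P-values therefore measure the spread between pools, not between single mice. A tdTomato sort reports the Aldh1l1 promoter and does not by itself exclude other cells, and neither hormone levels nor the hour of collection are given in the labels.

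Total counts per sample ranged from 52529048 to 58749115, and 22337 genes with a count in every sample, all 10 described here included, were tested. Levels are given as normalised CPM (counts scaled to a common library size), and 3 counts equal 0.0511 to 0.0571 CPM. The summed level of 8 astrocyte markers was between 15291 and 18847 CPM in the 6 samples. Transcripts of other cells were present as well. The sums of 6 choroid plexus markers (5976 to 17627 CPM), 6 oligodendrocyte markers (1026 to 3007 CPM), 8 microglial markers (611 to 923 CPM), 4 ependymal markers (53.4 to 202 CPM) and 6 neuronal markers (44.4 to 88.3 CPM) overlapped between the groups. Markers of endothelial cells, mural cells and neutrophils are given below beside the genes they moved with.

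Receptor transcripts overlapped between the groups, the enzyme transcript was lower in every STZ sample, and the 7 induced genes all had a higher mean in STZ, with Fkbp5 (3.75-fold) and Cebpd (1.84-fold) ahead of the rest. None of the 10 genes passed the threshold of an adjusted p under 0.05 with a fold change over 1.5 in edgeR's quasi-likelihood test with Benjamini-Hochberg adjustment, which 0.0224% of all genes tested passed (5 genes: Apln, Olfm2, Rtp1, Serpinh1 and Slc13a3, named after their values were seen). At an unadjusted p under 0.05, 4 of the 10 were higher in STZ (Fkbp5, Cebpd, Klf9 and Errfi1), against 5.63% of all genes tested. Hsd11b1 was the 1 gene lower at that level, against 5.65% of all genes. The same 5 genes were those whose 3 STZ values all lay on one side of the 3 vehicle values. Every STZ sample lay above every vehicle sample for 8.64% of all genes tested and below for 9.85%. DESeq2, run on the same counts, put 2 of the 10 past the same threshold (Fkbp5 and Cebpd), against 1.05% of all genes tested. The median log2 fold change was 0.28 over the 10 genes and 0.35 over the 7 induced genes, beside 0.01 over all genes. Of all genes tested, 51.9% had a positive log2 fold change.

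**Figure D1:**
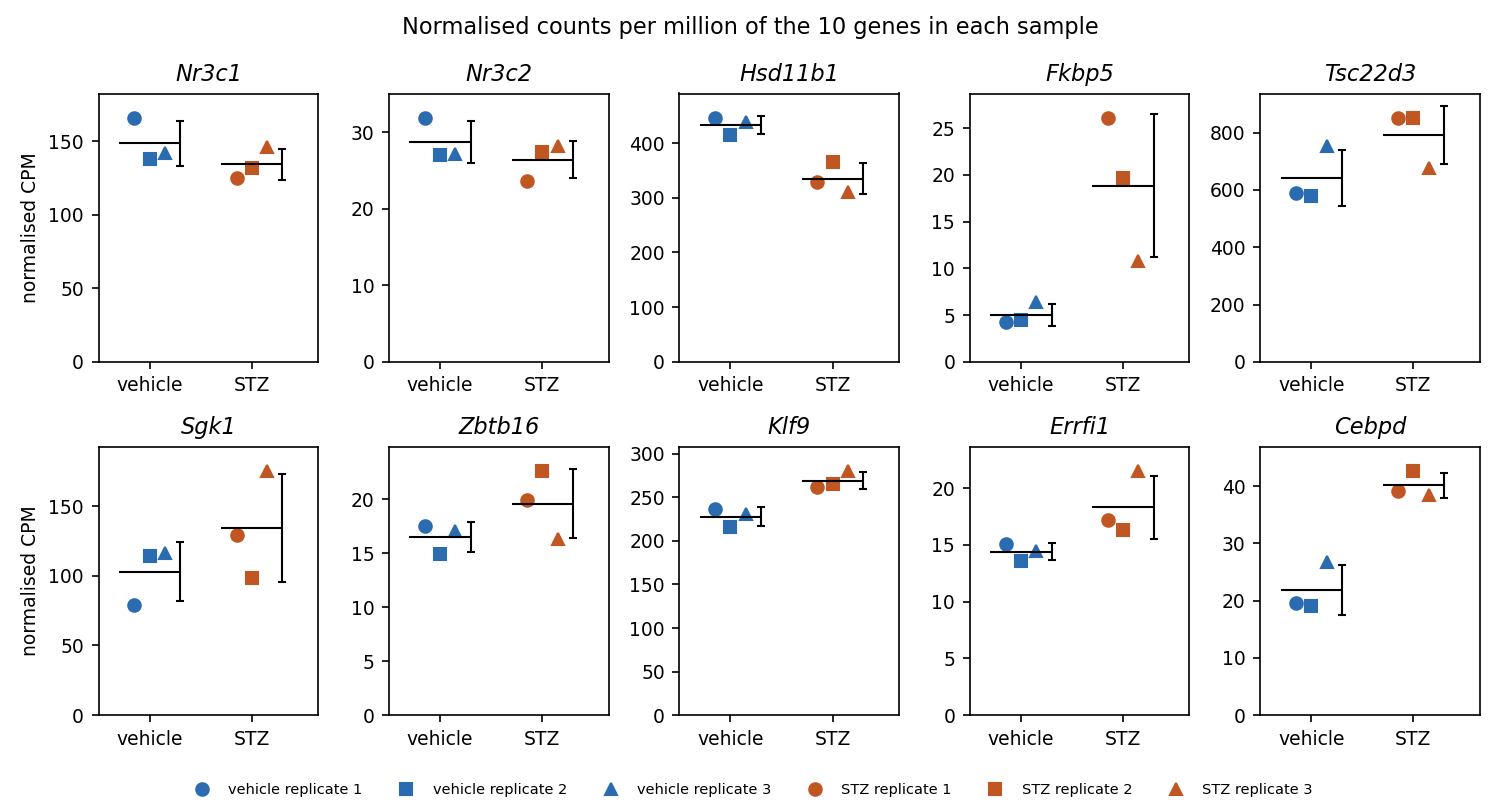
Normalised CPM of each of the 10 genes in the 3 vehicle and 3 STZ samples, each panel with its own axis from 0; horizontal lines are group means and bars are SD (n = 3 pools). The STZ points of Fkbp5, Cebpd, Klf9 and Errfi1 lie above all vehicle points, those of Hsd11b1 lie below, and the groups overlap in the other 5 genes.

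Both receptors were first compared by level. Nr3c1, on chromosome 18, was at 166, 138 and 142 CPM in the vehicle samples and at 125, 132 and 146 CPM in the STZ samples. The highest value was vehicle replicate 1 and the lowest STZ replicate 1, and the groups overlapped. The log2 fold change was -0.15 ± 0.0984 (SE), with a 95% interval of -0.38 to 0.08 (edgeR, adjusted p = 0.595), and -0.06 without vehicle replicate 1. Nr3c2, on chromosome 8, encodes a receptor that binds the same hormone with high affinity. It was at 31.9, 27.1 and 27.2 CPM in vehicle and at 23.7, 27.4 and 28.2 CPM in STZ samples. Here too vehicle replicate 1 was highest and STZ replicate 1 lowest, and the groups overlapped (log2 fold change -0.12, 95% interval -0.37 to 0.13, edgeR adjusted p = 0.698; log2 fold change -0.04 without vehicle replicate 1).

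Per transcript length, Nr3c1 exceeded Nr3c2 by a similar factor in each sample. The ratio of their FPKM values (fragments scaled by transcript length and mapped reads) was 4.80, 4.74 and 4.85 in vehicle and 5.23, 4.33 and 4.70 in STZ samples. Group means of this ratio were 4.79 ± 0.0545 and 4.75 ± 0.457 (SD, n = 3 pools each), and the vehicle values lay within the STZ range.

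Hsd11b1, the gene of the hormone-regenerating enzyme (GRCm38 chr1:193221640-193264045), was at 446, 415 and 439 CPM in vehicle and at 328, 366 and 311 CPM in STZ samples. All STZ values lay below all vehicle values, and the means were 433 ± 15.9 and 335 ± 28.1 CPM (SD, n = 3 pools each). The level in STZ was 0.773 times that in vehicle (95% interval 0.674 to 0.886, edgeR unadjusted p = 0.00262, adjusted p = 0.256). The adjusted p of DESeq2 was 0.0258, with a change smaller than the 1.5-fold threshold. In bulk samples, fewer cells that express a gene and less of its RNA per cell cannot be told apart. The astrocyte marker sum was 18847, 16165 and 17287 CPM in vehicle and 15513, 16615 and 15291 CPM in STZ samples. This sum overlapped between the groups. Of the 8 astrocyte markers, however, 3 were, like Hsd11b1, lower in every STZ sample, against 9.85% of all genes tested. These were the water channel gene Aqp4 (log2 fold change -0.48, beside -0.37 for Hsd11b1), Aldh1l1 (-0.22) and the glutamate transporter gene Slc1a2 (-0.11), while the connexin gene Gjb6 was higher in every STZ sample (0.27). Over the 8 markers the median log2 fold change was -0.15, with 2 positive. Those named here were named after their values were seen, and the part of the astrocyte share in the Hsd11b1 difference was not tested.

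Of the induced genes, Fkbp5 showed the largest fold change. It encodes a co-chaperone that lowers the affinity of the receptor for hormone and lies at GRCm38 chr17:28398753-28486149. Its counts were 228, 232 and 365 in vehicle and 1583, 1144 and 637 in STZ samples, which is 4.25, 4.47 and 6.37 CPM against 26.1, 19.7 and 10.8 CPM. The lowest STZ sample, replicate 3, was still above the highest vehicle sample, replicate 3, but the STZ samples themselves spread widely. The means were 5.03 ± 1.17 and 18.9 ± 7.66 CPM (SD, n = 3 pools each), a 3.75-fold difference (95% interval 2.21 to 6.35). Its adjusted p was 0.169 in edgeR (unadjusted p = 0.000487) and 4.21e-08 in DESeq2. Its log2 fold change of 1.91 ranged from 1.60 to 2.18 when single samples were omitted.

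Cebpd, which encodes the transcription factor C/EBPδ, came next (GRCm38 chr16:15887286-15889545). It was at 19.5, 19.1 and 26.8 CPM in vehicle and at 39.2, 42.6 and 38.5 CPM in STZ samples. The STZ samples lay close together and above all vehicle samples, of which replicate 3 was the highest. The means were 21.8 ± 4.33 and 40.1 ± 2.17 CPM (SD, n = 3 pools each), a 1.84-fold difference (95% interval 1.47 to 2.30, edgeR adjusted p = 0.163, DESeq2 adjusted p = 1.23e-05). In the GENCODE M21 annotation 562 exon bases of Cebpd, 15% of its exon bases, are shared with the gene Spidr on the opposite strand. Whether the counting used strand is unknown, and without it reads from the shared bases cannot be told apart. Spidr itself was at 8.93, 10 and 9.64 CPM in vehicle and at 7.85, 9.57 and 6.55 CPM in STZ samples. With the reads of Spidr added to those of Cebpd, the log2 fold change was 0.62 in place of 0.88. All reads of Spidr were added, also those from outside the shared bases. The value of 0.62 thus describes the 2 genes together and is not a corrected value for Cebpd.

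Klf9 and Errfi1 differed by less, again with no overlap. Klf9, a Krüppel-like transcription factor, was at 237, 216 and 230.5 CPM in vehicle and at 262, 265 and 280.1 CPM in STZ samples. The narrow spread in both groups set a 1.18-fold difference apart (95% interval 1.05 to 1.32, edgeR unadjusted p = 0.0108, adjusted p = 0.322). Errfi1, which encodes an inhibitor of the epidermal growth factor receptor, was at 15.1, 13.6 and 14.5 CPM in vehicle and at 17.2, 16.3 and 21.5 CPM in STZ samples. STZ replicate 3 was the highest, and the difference was 1.27-fold (95% interval 1.03 to 1.58, edgeR unadjusted p = 0.0306, adjusted p = 0.401). Without that sample the log2 fold change was 0.22 in place of 0.35.

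For Tsc22d3, Sgk1 and Zbtb16 the groups overlapped and the intervals held 0. Tsc22d3, which encodes the anti-inflammatory protein GILZ, was at 589.8, 578 and 753 CPM in vehicle and at 849.6, 851 and 675 CPM in STZ samples. Vehicle replicate 3 thus exceeded STZ replicate 3, and the log2 fold change was 0.31 (95% interval -0.02 to 0.63, edgeR adjusted p = 0.465). Sgk1, a kinase gene controlling ion channels and transporters, was at 78.7, 114 and 116 CPM in vehicle and at 129, 98.1 and 175 CPM in STZ samples. STZ replicate 3 was the highest and STZ replicate 2 lay among the vehicle values (log2 fold change 0.38, 95% interval -0.15 to 0.90, edgeR adjusted p = 0.56). The Sgk1 value rested on single samples, being 0.14 without STZ replicate 3 and 0.21 without vehicle replicate 1. Zbtb16, which encodes the zinc finger factor PLZF, was at 17.5, 14.9 and 17.1 CPM in vehicle and at 19.9, 22.6 and 16.3 CPM in STZ samples. STZ replicate 3 again lay within the vehicle range (log2 fold change 0.25, 95% interval -0.08 to 0.57, edgeR adjusted p = 0.543, and 0.13 in place of 0.25 without STZ replicate 2).

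**Figure D2:**
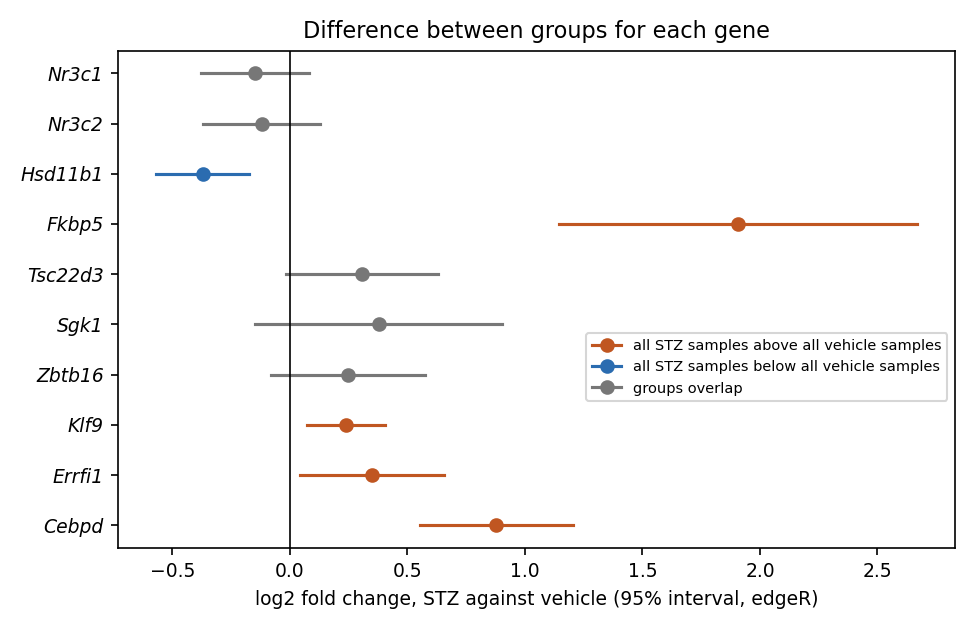
Log2 fold change of each gene, STZ against vehicle, from edgeR; points are estimates and lines 95% intervals, coloured by whether the STZ samples lie all above, all below or among the vehicle samples. Fkbp5 (1.91) and Cebpd (0.88) lie farthest to the right, and the intervals of Nr3c1, Nr3c2, Tsc22d3, Sgk1 and Zbtb16 include 0.

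No single STZ sample carried the higher levels of the induced genes. STZ replicate 1 was the highest sample for Fkbp5, replicate 2 for Tsc22d3, Zbtb16 and Cebpd, and replicate 3 for Sgk1, Klf9 and Errfi1. Among the 3 highest samples of each gene, STZ replicate 1 appeared for 7 of the 7 genes, replicate 2 for 6 and replicate 3 for 5. Vehicle replicate 3 appeared among them for 2 genes, vehicle replicate 1 for 1 and vehicle replicate 2 for 0. The lowest sample was vehicle replicate 2 for 5 genes and vehicle replicate 1 for 2.

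Levels of different genes were compared in FPKM, which divides by transcript length. Over the 6 samples Hsd11b1 (267 ± 34.6) and Tsc22d3 (266 ± 50.1, SD) were the most abundant, and their ranges overlapped. Klf9 (52.2 ± 6.09) and Sgk1 (43.9 ± 12.8) followed, also with overlapping ranges. Nr3c1 (21.8 ± 1.57) lay below the lowest Sgk1 sample and above the highest sample of Cebpd (12.9 ± 4.63). Errfi1 (5.06 ± 0.943), Nr3c2 (4.57 ± 0.378) and Fkbp5 (2.93 ± 2.27) overlapped as neighbours, as did Fkbp5 and Zbtb16 (2.23 ± 0.381). By group, Fkbp5 was at 1.19 ± 0.279 FPKM in vehicle and 4.67 ± 1.94 FPKM in STZ samples, so the gene with the largest fold change was among the least abundant.

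Promoter sequences are shown for 3 induced genes, since the receptor binds DNA at a palindromic element. The RefSeq promoter windows of GRCm38.p6 run from 250 bases before to 50 after an annotated start. For 7 of the 10 genes, 15 windows were searched. Nr3c1 was left out of this search by choice, and no window was used for Zbtb16 and Cebpd. The palindrome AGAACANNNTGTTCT, which reads the same on both strands, was in 3 of 32851 windows (0.00913%), those of Acnat2, Gm35041 and Sgk1. The 6-letter site AGAACA, or TGTTCT on the other strand, which is also each arm of the palindrome, was in 19.0% of all windows. It was in 4 of the 15 windows here, 3 of Sgk1 and 1 of Tsc22d3. The Sgk1 window (chr10:21993640-21993939, plus strand) belongs to an internal start of the gene and holds the whole palindrome 189 to 175 bases before that start, in capitals. The Tsc22d3 window (chrX:140600473-140600772, minus strand) holds the 6-letter site 185 to 180 bases before the start, in capitals. The Fkbp5 window (chr17:28486100-28486399, minus strand) holds neither.
Sgk1: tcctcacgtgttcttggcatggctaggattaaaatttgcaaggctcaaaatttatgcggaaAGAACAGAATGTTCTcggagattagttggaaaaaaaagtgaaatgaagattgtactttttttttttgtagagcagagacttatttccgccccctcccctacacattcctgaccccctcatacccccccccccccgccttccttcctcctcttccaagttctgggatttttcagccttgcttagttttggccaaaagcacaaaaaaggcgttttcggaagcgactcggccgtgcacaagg
Tsc22d3: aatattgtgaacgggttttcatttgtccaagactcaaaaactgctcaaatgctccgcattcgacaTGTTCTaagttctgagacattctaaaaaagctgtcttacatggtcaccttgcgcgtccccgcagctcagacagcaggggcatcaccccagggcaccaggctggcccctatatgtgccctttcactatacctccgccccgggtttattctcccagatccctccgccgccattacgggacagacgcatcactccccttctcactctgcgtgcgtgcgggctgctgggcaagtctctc
Fkbp5: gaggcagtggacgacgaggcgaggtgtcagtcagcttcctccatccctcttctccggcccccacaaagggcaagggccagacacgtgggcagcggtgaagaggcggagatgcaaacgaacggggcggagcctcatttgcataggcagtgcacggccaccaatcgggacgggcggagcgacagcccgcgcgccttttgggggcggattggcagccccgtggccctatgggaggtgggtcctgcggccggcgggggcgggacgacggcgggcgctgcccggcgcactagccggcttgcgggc
A match to these letters is a description of the window and not a measured binding site. The palindrome was in 1 of the 6 Sgk1 windows. Only these exact letters were sought, and bases farther than 250 before or 50 after a start were not searched. The windows therefore do not show whether a gene has or lacks a receptor site, and their relation to the fold changes was not tested.

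Genes around the receptor were taken as lists. Of 20 other genes known to be induced by glucocorticoids, 18 had a positive log2 fold change, beside 51.9% of all genes tested. The median was 0.46. At an unadjusted p under 0.05, 9 were higher in STZ and 0 lower, against 5.63% and 5.65% of all genes tested. In edgeR 0 passed the threshold, while DESeq2 put 4 past it, against 1.05% of all genes tested. These were Sult1a1, Nfkbia, Cdkn1a and Dusp1, the last named after its value was seen. Sult1a1, a sulfotransferase gene, was at 31.4, 37.3 and 41.0 CPM in vehicle and at 92.7, 85.8 and 61.3 CPM in STZ samples, with all STZ samples above (2.19-fold, 95% interval 1.67 to 2.86, edgeR adjusted p = 0.157). Nfkbia, which encodes the NF-κB inhibitor IκBα, was at 98.0, 105 and 123 CPM in vehicle and at 155, 175 and 223 CPM in STZ samples (1.70-fold, edgeR adjusted p = 0.195). Cdkn1a, which encodes the cell cycle inhibitor p21, was at 22.2, 26.1 and 35.5 CPM in vehicle and at 64.0, 52.6 and 39.9 CPM in STZ samples (1.87-fold, edgeR adjusted p = 0.272).

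The metallothionein genes Mt1 and Mt2, whose products bind zinc and copper, and the clock gene Per1 completed the 6 of this list with the smallest p-values. Mt1 was at 643, 558 and 759.8 CPM in vehicle and at 932, 1023 and 853 CPM in STZ samples (1.43-fold). Mt2 was 1.49-fold and Per1 1.41-fold higher in mean, and for these 3 genes every STZ sample lay above every vehicle sample (edgeR adjusted p from 0.258 to 0.286). The lipid droplet gene Plin4 (log2 fold change 1.20, edgeR adjusted p = 0.402) and the decoy receptor gene Il1r2 (log2 fold change 1.17, edgeR adjusted p = 0.497) had the largest fitted fold changes of the list, with groups that overlapped. With single samples left out, they ranged from 0.68 to 1.52 for Plin4 and from 0.55 to 1.82 for Il1r2, beside 1.01 to 1.29 for Sult1a1, so their order rests on single libraries. The 3 highest samples of Il1r2 were STZ replicates 1 and 2 and vehicle replicate 3, as in the neutrophil marker sum given below. The part of neutrophils in the Il1r2 difference was not tested. In the other direction, Pdk4, a kinase gene that restrains glucose oxidation, had a log2 fold change of -0.21 (edgeR adjusted p = 0.462) with all STZ samples below all vehicle samples, and was named after its value was seen.

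**Figure D3:**
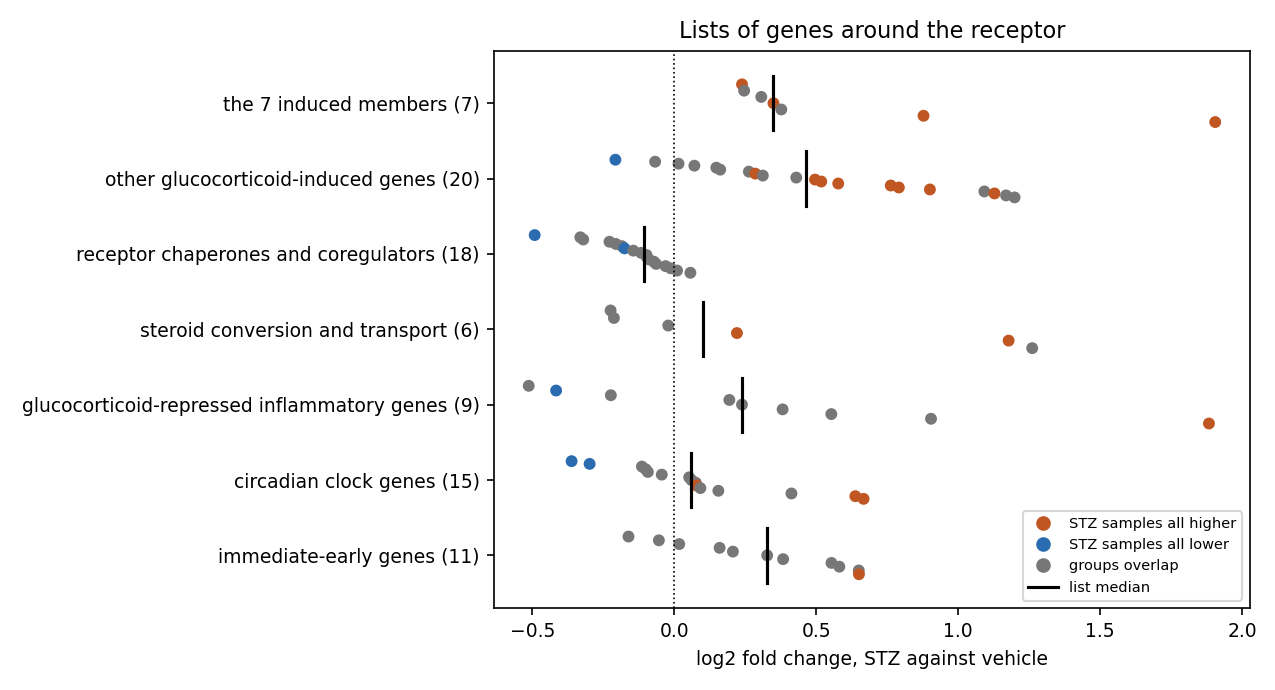
Log2 fold change (STZ against vehicle, edgeR) of the tested genes of each list, 1 point per gene; black bars are list medians, and colours show whether the STZ samples lie all above, all below or among the vehicle samples. The points of the 7 induced genes (median 0.35) and of 20 other induced genes (median 0.46) lie mostly to the right of 0, those of chaperones and coregulators (median -0.11) mostly to the left.

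Of 18 chaperones and coregulators of the receptor, 2 had a positive log2 fold change, beside 51.9% of all genes tested. The median was -0.11. At an unadjusted p under 0.05, 0 were higher and 4 lower, against 5.63% and 5.65% of all genes tested. The threshold was passed by 0 in edgeR or DESeq2. Hspa8, the constitutive Hsc70 chaperone, was at 1709.8, 1979.8 and 1825 CPM in vehicle and at 1217, 1279 and 1427 CPM in STZ samples. Every STZ sample was below every vehicle sample (0.711-fold, 95% interval 0.602 to 0.841, edgeR adjusted p = 0.227). Also lower at that level were Hsp90ab1, an Hsp90 gene (log2 fold change -0.33, edgeR adjusted p = 0.37), and Fkbp4, the co-chaperone that competes with Fkbp5 (log2 fold change -0.23, edgeR adjusted p = 0.437). For Fkbp4 the values were 182, 205 and 193 CPM in vehicle and 158, 151 and 186 CPM in STZ samples, and the groups overlapped.

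Of 8 genes of steroid conversion and transport, 6 were tested, and Hsd11b2 and Srd5a2 had a count of 0 in at least 1 sample. The median log2 fold change of the 6 was 0.10, with 3 positive. At an unadjusted p under 0.05, 2 were higher (Abcb1a and Akr1c14) and 0 lower, against 5.63% and 5.65% of all genes tested. In edgeR 0 passed the threshold. Abcb1a encodes an efflux pump that carries glucocorticoids out of the cells lining brain capillaries. It was at 3.47, 3.87 and 9.36 CPM in vehicle and at 16.8, 11.6 and 9.40 CPM in STZ samples. All STZ values were above the vehicle values, though STZ replicate 3 and vehicle replicate 3 nearly met (2.26-fold, edgeR adjusted p = 0.37, DESeq2 adjusted p = 0.0371). The endothelial marker sum given below was also close in these 2 samples (203 and 216 CPM) and highest in STZ replicate 1 (369 CPM). The part of endothelial cells in the Abcb1a difference was not tested. Akr1c14, an enzyme gene of neurosteroid metabolism, had a log2 fold change of 1.26 at a mean of 1.5 CPM (edgeR adjusted p = 0.441).

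Among 12 inflammatory genes known to be repressed by glucocorticoids, 9 were tested, 6 had a positive log2 fold change, and the median was 0.24. At an unadjusted p under 0.05, 1 was higher (Tnf) and 1 lower (Vcam1), and 0 passed edgeR's threshold. Il6, Nos2 and Csf2 had a count of 0 in at least 1 sample. Tnf, a cytokine gene, was at 0.765, 0.424 and 0.873 CPM in vehicle and at 2.59, 3.45 and 1.60 CPM in STZ samples, all above (edgeR adjusted p = 0.218, DESeq2 adjusted p = 0.000866). Vcam1, an adhesion molecule gene, was at 572, 518 and 523 CPM in vehicle and at 327, 397 and 484 CPM in STZ samples, all below (edgeR adjusted p = 0.356). The protease gene Mmp9 was at 12.6, 14.2 and 65.1 CPM in vehicle and at 79.9, 63.2 and 29.1 CPM in STZ samples, with overlap. Its 3 highest samples, vehicle replicate 3 and STZ replicates 1 and 2, were also the 3 highest in the neutrophil marker sum given below, whose part in it was not tested. With 1 of 9 genes in each direction, beside 5.63% and 5.65% of all genes, nothing was read from the list as a whole.

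Clock and immediate-early genes, which respond to the hour of day and to handling, were set beside the induced genes. Of 15 clock genes, 2 were higher (Nr1d1 and Ciart) and 2 lower (Arntl and Cry1) in STZ at an unadjusted p under 0.05, with a median log2 fold change of 0.06. Of all genes tested, 5.63% were higher and 5.65% lower at that level. Nr1d1 was at 244, 214 and 218 CPM in vehicle and at 315, 298 and 460.4 CPM in STZ samples, and Arntl, the gene of a core clock activator that Nr1d1 represses, was at 64.4, 74.6 and 64.2 CPM and at 51.5, 56.2 and 50.4 CPM. Ciart had a log2 fold change of 0.64 and Cry1 of -0.30, and for all 4 genes the groups did not overlap (edgeR adjusted p from 0.271 to 0.313). Of 11 immediate-early genes, 4 were higher at that level (Fos, Junb, Ier2 and Zfp36, log2 fold changes from 0.55 to 0.65), 0 were lower, and the median was 0.33. The groups overlapped for Fos, Junb and Ier2 but not for Zfp36. The summed level of the 11 was 538, 422 and 542 CPM in vehicle and 747, 732 and 497 CPM in STZ samples. STZ replicate 3 lay within the vehicle range of this sum. It was also the lowest STZ sample for Fkbp5, Cebpd, Tsc22d3 and Zbtb16, and within the vehicle range for the last 2 of them, and it was the highest sample for Sgk1, Klf9 and Errfi1. The part of the hour of collection or of handling in the induced genes was not tested.

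Vascular and neutrophil markers differed between the samples as well. The summed level of 12 endothelial markers was 67.9, 97.4 and 216 CPM in vehicle and 369, 279 and 203 CPM in STZ samples. All 12 had a positive log2 fold change (median 1.12), beside 51.9% of all genes tested. At an unadjusted p under 0.05, 10 of 12 were higher, against 5.63% of all genes tested. The 8 mural markers summed to 111, 112 and 132 CPM in vehicle and 184, 163 and 144 CPM in STZ samples, with 4 of 8 higher at that level and a median of 0.94. The 6 neutrophil markers summed to 173, 167 and 958 CPM in vehicle and 1081, 1261 and 532 CPM in STZ samples (median log2 fold change 1.15, 0 of 6 at that level). DESeq2 put 4 of the 8 mural, 1 of the 12 endothelial and 0 of the 6 neutrophil markers past the threshold, against 1.05% of all genes tested. In edgeR 0 of them passed it. The 4 mural markers, named after their values were seen, were Tagln, Acta2, Myh11 and Rgs5. Their log2 fold changes were 2.65, 1.30, 1.43 and 1.02, beside 1.91 for Fkbp5, with all STZ samples above all vehicle samples. Of the 26 markers 0 were at 0 counts in every sample.

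Fkbp5 ranked the 6 samples in the same order as the mural sum, from STZ replicate 1, 2 and 3 to vehicle replicate 3, 2 and 1. Vehicle replicates 1 and 2 were close in both (111 and 112 CPM in the sum, 4.25 and 4.47 CPM in Fkbp5). This order was not particular to Fkbp5. Sult1a1 and Cdkn1a, from the list of other induced genes, ranked the samples in the same order. Nfkbia and Dusp1, which also passed the threshold of DESeq2, did not. The most abundant mural marker, Pdgfrb (mean 80 CPM in vehicle), had a log2 fold change of -0.08, while 7 of the 8 were positive. The endothelial sum had the same order but for STZ replicate 3, which was below vehicle replicate 3 in that sum (203 and 216 CPM) and above it in the mural sum (144 and 132 CPM) and in Fkbp5 (10.8 and 6.37 CPM). Cebpd was 38.5 CPM in STZ replicate 3 and 26.8 CPM in vehicle replicate 3. Klf9 was 280.1 and 230.5 CPM, Errfi1 21.5 and 14.5 CPM, and Sgk1 175 and 116 CPM in the same pair of samples. Tsc22d3 was lower in STZ replicate 3 (675 CPM) than in vehicle replicate 3 (753 CPM), as was Zbtb16 (16.3 and 17.1 CPM). The part of endothelial, mural or blood cells in these differences was not tested.

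**Figure D4:**
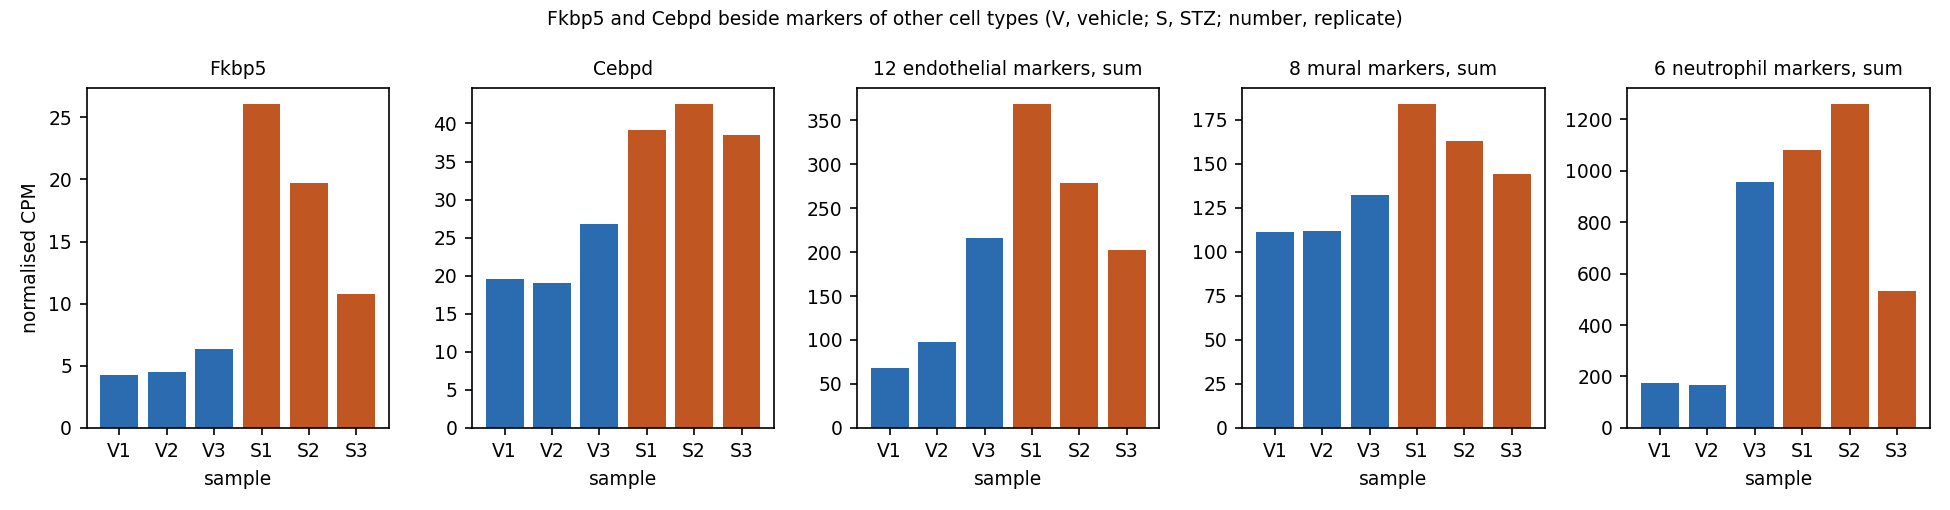
Bars give the normalised CPM of Fkbp5 and Cebpd and the summed normalised CPM of 12 endothelial, 8 mural and 6 neutrophil markers in each sample, vehicle in blue and STZ in orange, with axes from 0. The mural sum and Fkbp5 rank the 6 samples alike, and in the endothelial sum vehicle replicate 3 (216 CPM) exceeds STZ replicate 3 (203 CPM).

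The genes whose levels followed Fkbp5 and Nr3c1 most closely were found by the mean absolute difference, over the 6 samples, of log2 CPM centred on each gene's own mean, among 16252 genes with a mean of at least 1 CPM. For Fkbp5 these were Gm11827 (0.122), Tbx1 (0.225), Tbx2 (0.228), Hrct1 (0.249) and Ly6a (0.255). Ly6a, a surface antigen gene of endothelial and blood cells, was at 7.05, 11 and 25.9 CPM in vehicle and at 59.9, 46.5 and 27.8 CPM in STZ samples. For Nr3c1 they were Tmem30a (0.0121), Ppox (0.0142), Arl10 (0.0168), Ctns (0.0168) and Slc29a2 (0.0169), each with a log2 fold change between -0.16 and -0.13. These 6 samples share libraries and groups, so the likeness is a description.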

How the data were processed

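Sorted tdTomato-positive astrocytes from 3 vehicle and 3 STZ pools of mice were analysed, with groups and replicate numbers from the sample titles and treatment labels. Poly(A) RNA libraries were made with a SMART-Seq kit. Alignment by the authors used HISAT2 and the mm10 genome, and StringTie gave the values per gene. The submitters' processing notes list bcl2fastq 2.20.0, Trimmomatic 0.38, HISAT2 2.1.0, SAMtools 1.9 and StringTie 2.1.3b, and the annotation version is not given in the sources used here. Raw counts (whole reads for each gene, not normalized) were deposited. The deposited FPKM and TPM values were scaled by the authors for depth and transcript length. The columns of the authors' own comparison, fold changes and p-values, were not used.

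The 22337 genes of 45777 that had 1 or more counts in all samples entered a two-sided quasi-likelihood test of edgeR 4.0.16 (R 4.3.3). The model held the group alone, libraries were scaled by TMM, and Benjamini-Hochberg adjustment ran over all genes tested. CPM values are counts over TMM-scaled library sizes, and log2 CPM had a prior count of 2. Total counts were 52529048 to 58749115, and the floor of 3 counts covers counting error only. Alternatives were DESeq2 1.42.0, edgeR with the size factors of DESeq2, all genes with any count, filterByExpr, a robust fit, the replicate number as a block, limma 3.58.1 on log2(TPM + 1) and log2(TPM + 0.1), and each sample left out in turn. Adding the reads of Spidr to Cebpd was chosen after seeing the data. The procedures were tested on simulated data. Python 3.11.15 with pandas 2.3.3, numpy 2.4.6 and matplotlib 3.10.9 made tables and figures.

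The genes, lists and tests were chosen with earlier results of these data known. Besides the 10 genes, each list around the receptor gave at most 6 genes at an unadjusted p under 0.05, by smallest p, and the 2 with the largest absolute log2 fold change at a mean of at least 1 CPM; 5 genes most like Fkbp5 and Nr3c1 were named. Some genes that this rule names are not reported here. Coordinates are from RefSeq (GRCm38), and exon overlap from GENCODE M21.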

Additional observations from a re-analysis of the deposited data

How the results depend on the processing

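The 10 log2 fold changes were recomputed under 15 alternatives, and of 150 values 148 kept their direction and their side of the threshold, 0 changed direction, and Fkbp5 and Cebpd passed the threshold under DESeq2 only. Of the 15, 1 added the reads of Spidr to Cebpd and left the counts of the other genes described here as they were. Under it the values of those genes were bound to stay nearly the same. The number of the 10 genes past the threshold was 0 in edgeR and 2 in DESeq2. Over all genes the number was 5 in edgeR, 234 in DESeq2, 10 in the robust fit and 0 in limma at either pseudocount (2635 and 2612 genes at an unadjusted p under 0.05), and 0 to 1 when a sample was left out. With the replicate number as a block it was 0 genes (1793 at an unadjusted p under 0.05) and 0 of the 10 (5 at that level). Same-numbered samples did not deviate together (correlations of -0.101, -0.162 and -0.184), so the numbers were not taken to pair the samples. The number of the 10 at an unadjusted p under 0.05 was 5, and 3 to 6 when a sample was left out. It was 3 without vehicle replicate 2, where Klf9 and Errfi1 dropped out. The number whose groups did not overlap was 5, and 5 to 8 when a sample was left out. It was 8 without STZ replicate 3. With 3 samples against 2, fewer comparisons have to hold, and the share of all genes without overlap was 26 to 33.2% over the 6 omissions (33.2% without STZ replicate 3), against 18.5% with all samples. The cause of the other shifts was not tested. Each of the 10 genes had at least 228 counts in each sample, and the precision of every fold change rests on 3 pools in each group.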
